A study of Homo sapiens with 12 samples.

Results

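The genes described here encode the core machinery of RNA polymerase I and RNA polymerase III: their specific and shared subunits, the initiation factors that place them on their templates, the Pol III repressor MAF1 and the snRNA activating protein complex SNAPc. They were taken as a list of 39 gene symbols, and all 39 were found among the 23434 gene rows of the count table. Newly made RNA was measured by EU-seq, in which cells take up 5-ethynyl-uridine (EU) for a short time and the labelled RNA is captured and sequenced. The cells were U2OS, a human osteosarcoma line, carrying MycER, a Myc protein fused to the estrogen receptor that moves to the nucleus upon addition of 4-hydroxytamoxifen (OHT). The 4 groups had 3 libraries each: shNT (a non-targeting short hairpin RNA), shNT+OHT, shCDK12 and shCDK12+OHT. All 12 libraries shared hairpin induction by doxycycline (1 µg/mL), an 8 h mitotic block with 100 ng/mL nocodazole that was released 12 h before collection, an EU pulse of 0.5 mM for 2 h, and mixing of 40 µg of human RNA with 10 µg of mouse RNA. The OHT groups received 300 nM for 40 h. How many hairpins or clones stand behind each group is not given in the labels, nor is it said whether the 3 libraries came from separate cultures, so p-values measure only the spread between these libraries, which may be technical.

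Pol I transcribes only the repeated ribosomal DNA in the nucleolus, and Pol III transcribes tRNA genes, the 5S rRNA genes and a set of small RNA genes. Both enzymes make the RNA that growing cells need for ribosomes, and both are known to respond to Myc, which also binds promoters of genes for their parts. The members listed here are themselves protein-coding genes transcribed by Pol II, so their reads report the supply of new mRNA for the machinery and not the activity of Pol I or Pol III.

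Total counts ran from 1251695 to 10447836 per library, an 8.35-fold range, with the shallowest libraries in shNT+OHT (median 3297982) and shNT (median 4314380), against medians of 5349901 and 7173020 in the groups labelled shCDK12 and shCDK12+OHT. The members held between 0.320% and 0.450% of a library. CDK12, the targeted gene, did not separate the groups without OHT: it stood at 323, 289 and 300 CPM (counts scaled to a common library size with TMM factors) in shNT and at 293, 277 and 298 in the libraries labelled shCDK12 (log2 difference −0.08, SE 0.08, adjusted p = 0.447, edgeR quasi-likelihood test). Upon OHT it was 434, 356 and 400 in shNT+OHT against 215, 208 and 218 in the libraries labelled shCDK12+OHT (log2 difference −0.88, SE 0.11, adjusted p = 0.00011). These are levels of newly made RNA, which do not measure how far CDK12 mRNA or protein was lowered. The groups are therefore called by their labels throughout, and every direction below is a direction between labelled groups. Whether labels were exchanged between libraries was not tested, and an exchange would change what the directions between hairpins and upon OHT mean. An exchange of shCDK12 with shCDK12+OHT, for example, would reverse every OHT direction in that background. It would set CDK12 at 215, 208 and 218 CPM against 323, 289 and 300 in shNT. With OHT it would set CDK12 at 293, 277 and 298 CPM against 434, 356 and 400. On the first principal component of log2 CPM (49.0% of variance), both shNT groups lay at 25.1 to 40.3 and both labelled shCDK12 at −46.8 to −24.3. On the second (22.9%), shNT (19.6 to 21.1) and shCDK12+OHT (25.5 to 27.3) lay on 1 side. On its other side lay shNT+OHT (−37.1 to −20.8) and shCDK12 (−20.9 to −16.0). The shNT+OHT libraries were the least alike: their correlations within the group were 0.927 to 0.959, against 0.972 to 0.994 within the other groups. Of the 6 mesenchymal and bone markers checked, VIM, COL1A1, SPARC and RUNX2 were detected in every library and COL1A2 and TWIST1 stayed at or under 1.16 CPM. Among the 4 epithelial markers KRT8 and KRT18 reached 386 and 579 CPM, whereas EPCAM and CDH1 reached only 9.55 and 12.2. The 3 blood markers summed to at most 4.01 CPM in any library and the 2 endothelial markers to at most 4.17. The summed mesenchymal markers lay at 828 to 920 CPM in shNT, 663 to 706 in shNT+OHT, 362 to 371 in shCDK12 and 459 to 476 in shCDK12+OHT. The summed epithelial markers lay at 693 to 765 CPM in shNT, 679 to 830 in shNT+OHT, 652 to 752 in shCDK12 and 886 to 970 in shCDK12+OHT. The part of either marker group in the differences below was not tested. In bulk libraries, fewer cells with a transcript and less of it per cell cannot be told apart.

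The word CACGTG, the E-box core that Myc and its partner Max are known to recognise, was searched for in the promoter windows of the members, from 250 bases before to 50 bases after the annotated start. It is its own reverse complement, so both strands were searched at once, and no other word was searched. RefSeq (GRCh38.p14) gave a window for 33 members, and 7 of them (21.2%) held the word, against 8.77% of 27305 genes with a window and 13.0% of the 8374 genes with a window that were tested upon OHT in shNT cells. The 7 are shown because Myc activity is what OHT changes in these cells, each as 30 bases on the gene's strand with the word in capitals. They lie at chr1:145823992-145824021 (POLR3C, plus strand), chr2:27356850-27356879 (GTF3C2, minus strand), chr6:110958552-110958581 (GTF3C6, plus), chr9:132669988-132670017 (GTF3C4, plus), chr10:78029533-78029562 (POLR3A, minus), chr16:22297396-22297425 (POLR3E, plus) and chr19:45406620-45406649 (POLR1G, plus).
POLR3C: gcccgcgtcggtCACGTGagttggccaggc
GTF3C2: ccggaccaagcaCACGTGtttaccttgtgc
GTF3C6: gtggcgagtctcCACGTGggtaccggcgct
GTF3C4: ggcccgggacccCACGTGggacgcgcgagg
POLR3A: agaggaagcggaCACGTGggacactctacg
POLR3E: cccgctccccccCACGTGtccgccggagtt
POLR1G: cccctttggatcCACGTGgtctgcaacctg
The word began 35 bases before the start in both GTF3C4 and POLR3A, 12 before it in POLR1G and 1 before it in POLR3E, and between 103 and 196 before it in GTF3C2, GTF3C6 and POLR3C. POLR1E, POLR3D, POLR3G, BRF2, MAF1 and SNAPC4 had no entry.

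In shNT cells the members differed widely in level. Only values per kilobase of exon can be set between genes, and on that scale MAF1, the repressor that binds Pol III in starved cells, stood highest at 81.1 ± 2.80 CPM per kb (SD, n = 3). POLR1E, which forms a TFIIF-like pair with POLR1G in Pol I, followed at 57.7 ± 4.64. GTF3C4 of TFIIIC (36.6 ± 1.64), POLR1C, shared by Pol I and Pol III (36.0 ± 2.60), TAF1D of the Pol I factor SL1 (31.4 ± 1.96), UBTF, which coats active ribosomal DNA (31.0 ± 2.59), and POLR1F of the Pol I stalk (30.5 ± 1.08) came next. The lowest were SNAPC3, at 3.73 ± 0.207, POLR3GL at 3.26 ± 0.657, POLR3G at 2.96 ± 0.660 and BRF1 of TFIIIB at 1.43 ± 0.438. Neighbours in this order could rarely be told apart, since the libraries of 31 of the 38 neighbouring pairs overlapped. The values also depend on the exon length used, the union of all annotated exons, which was 2415 bases for MAF1 and 12962 for BRF1. Before this division BRF1 had 18.5 CPM in shNT, above POLR3G at 11.9. The order therefore gives broad ranks only, with a 56.7-fold span between MAF1 and BRF1 on this scale.

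**Figure D1:**
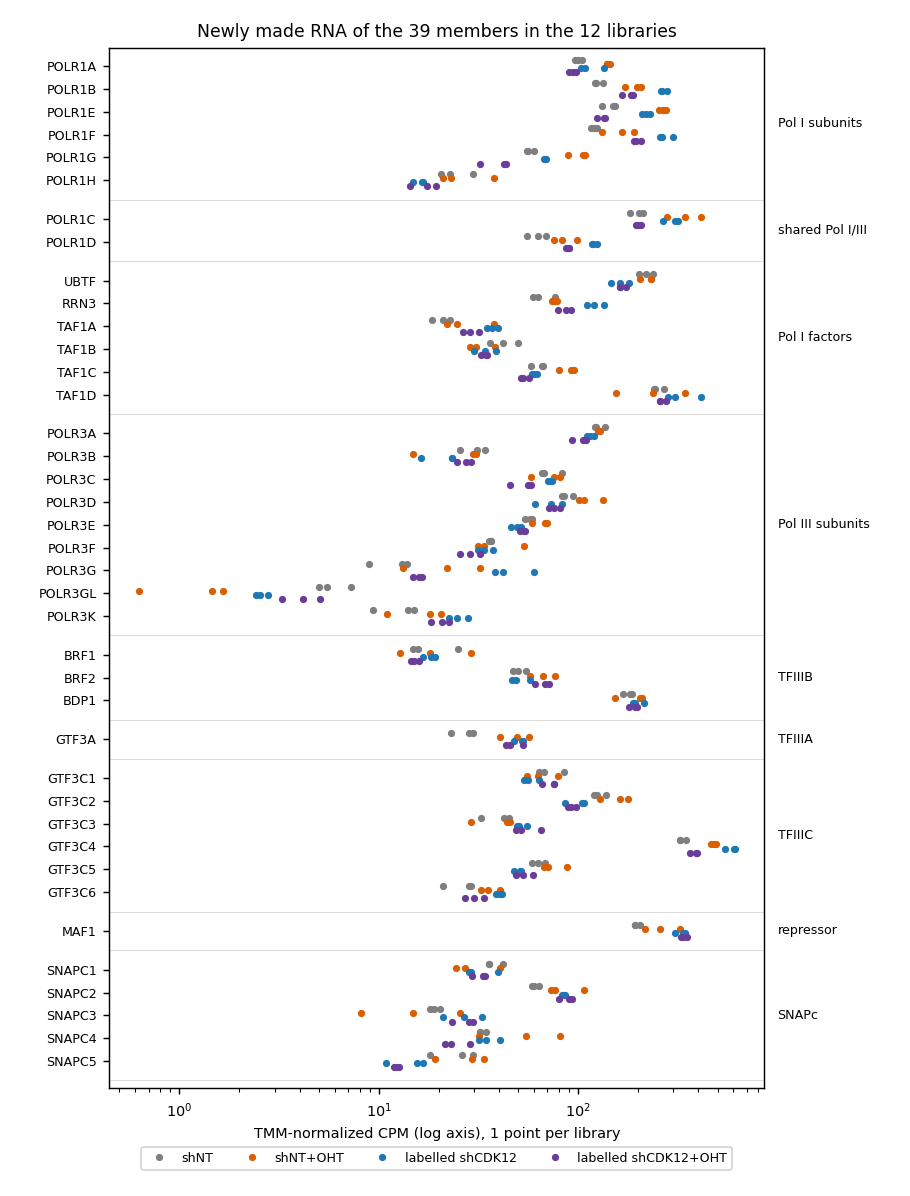
TMM-normalized CPM (log axis, 1 point per library) of the 39 members, grouped by role and coloured by the 4 labelled groups. POLR3GL ranges from 0.627 to 7.26 CPM and GTF3C4 sits highest, and POLR1E, POLR1G and POLR1C show the shNT+OHT points above those of shNT and of shCDK12+OHT.

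The first comparison asked which members changed upon MycER activation in control cells. Of the 38 members tested, 9 rose in shNT+OHT against shNT (23.7%) and 0 fell, where 9.05% of the 10272 genes tested rose and 8.29% fell (edgeR quasi-likelihood test, adjusted p under 0.05 over all genes). Pol I parts led: 4 of its 6 specific subunits rose, as did POLR1C, which Pol I and Pol III share. None of the 8 Pol III subunits, the 3 TFIIIB genes or the 5 SNAPc genes tested passed, although POLR3D, POLR3G, BRF2, SNAPC2 and SNAPC4 had an unadjusted p under 0.05. At an unadjusted p under 0.05 there were 16 members, 0 of them lower, a count given without the share over all genes. DESeq2 called 12 members, all higher, and 1864 of the 10272 genes, 1080 of them higher. The members' median log2 fold change was 0.33, against −0.03 over all genes, and 31 of the 38 lay above 0.

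Among the Pol I subunits, POLR1E stood at 149, 152 and 131 CPM in shNT and at 266, 254 and 276 in shNT+OHT. Every OHT library lay above every shNT library, a 1.84-fold rise (log2 0.88, SE 0.12, adjusted p = 0.000272). Its partner POLR1G went from 56.0, 59.7 and 55.6 CPM to 107, 89.1 and 105, again without overlap (log2 0.82, SE 0.15, adjusted p = 0.00259). POLR1C, of the alpha-like dimer on which both enzymes assemble, was 201, 211 and 182 CPM in shNT and 342, 277 and 415 upon OHT (log2 0.80, SE 0.14, adjusted p = 0.00173). The OHT libraries spread more than the shNT libraries here, and the lowest of them still lay above all 3 shNT values. The large catalytic subunits rose less. POLR1B went from 122, 121 and 133 CPM to 172, 198 and 206 (log2 0.61, SE 0.13, adjusted p = 0.00622), and POLR1A from 99.8, 104 and 96.2 to 144, 139 and 139 (log2 0.49, SE 0.13, adjusted p = 0.0195). Both groups were tight for POLR1A, which rose 1.41-fold. In the RefSeq annotation 27 of the 39 members overlap another gene. Among them are POLR1G (with ERCC1), POLR1C (XPO5), GTF3A (MTIF3), TAF1C (DNAAF1), POLR3G (MBLAC2), BRF2 (ADGRA2), SNAPC3 (PSIP1) and SNAPC5 (MAP2K1). TAF1D overlaps the most, 10 genes that include CEP295 and small nucleolar RNA genes. As the use of strand in counting is not given in the sources used here, reads of overlapping genes cannot be told apart.

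For Pol III, the rises were in TFIIIA, in 1 gene of TFIIIC and in the repressor. GTF3A (TFIIIA), which binds the 5S rRNA gene, was 23.0, 28.3 and 29.6 CPM in shNT and 49.2, 40.4 and 56.5 upon OHT, a 1.84-fold rise with no overlap (log2 0.88, SE 0.21, adjusted p = 0.0105). GTF3C4, a TFIIIC subunit and the member with most reads, went from 322, 348 and 323 CPM to 464, 482 and 492 (log2 0.53, SE 0.10, adjusted p = 0.00371). MAF1 rose from 204, 192 and 191 CPM to 322, 216 and 258 (log2 0.44, SE 0.14, adjusted p = 0.0425), with the OHT libraries far apart from each other. On the Pol I side TAF1C, an SL1 subunit, went from 65.8, 66.7 and 57.6 CPM to 95.2, 91.6 and 79.7 (log2 0.48, SE 0.16, adjusted p = 0.0479).

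The other 29 members lay between −0.37 and 0.86 on the log2 scale and did not pass. POLR3G held the highest of these values, with 8.90, 13.9 and 13.0 CPM in shNT and 13.2, 32.2 and 22.0 upon OHT (log2 0.86, SE 0.34, adjusted p = 0.0993). Its groups overlapped, since the lowest OHT library lay under 1 of the shNT libraries. SNAPC4, the largest SNAPc subunit, was 32.1, 34.4 and 32.1 CPM against 80.5, 54.4 and 31.9 (log2 0.76, SE 0.27, adjusted p = 0.0687), so that 1 OHT library lay at the shNT level. UBTF (log2 0.02), POLR3A (0.01) and POLR3C (0.01) had values closest to 0. Of the 7 members with CACGTG, POLR1G and GTF3C4 rose and the other 5 lay between 0.01 and 0.43, and 5 of the 25 tested members whose window lacked the word rose.

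The call depended on single libraries in 5 of the 9 members. Without shNT replicate 1, 5 members were called, and without shNT replicate 2, 4 were. Calls over all genes fell too, from 1782 of 10272 to 751 of 10072 and 670 of 9892. GTF3A lost its call without shNT replicate 1 or 2 (adjusted p up to 0.0745) and POLR1B without shNT replicate 2 (0.0581), POLR1A without any 1 of the 3 shNT replicates (up to 0.0957), TAF1C without any 1 of the 3 shNT replicates or shNT+OHT replicate 3 (up to 0.171), and MAF1 without any 1 of the 3 shNT replicates or shNT+OHT replicates 1 or 3 (up to 0.177). POLR1E, POLR1G, POLR1C and GTF3C4 passed in every alternative run. Shorter genes had higher fold changes upon OHT among all genes (r = −0.29 between log2 fold change and log10 gene span, across 10251 genes, which are not independent) and among the members (r = −0.38, n = 38). With this trend removed, an alternative chosen after seeing the data, 8 members rose, where 850 of the 10272 genes did. TAF1C and MAF1 did not pass there.

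**Figure D2:**
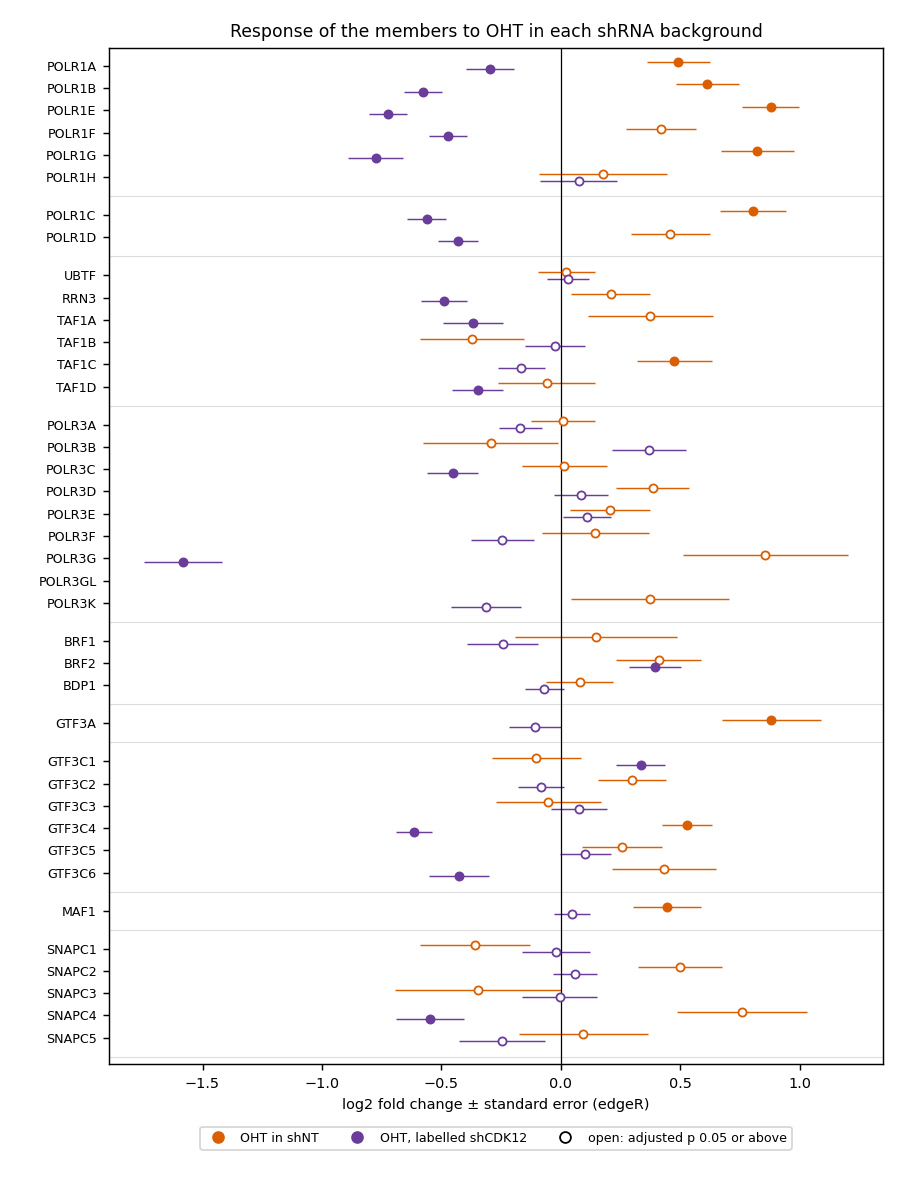
Log2 fold change with its standard error (edgeR) of the 38 tested members upon OHT, in the shNT background (orange) and in the background labelled shCDK12 (purple), filled where the adjusted p was under 0.05. The Pol I subunits POLR1A, POLR1B, POLR1E and POLR1G, together with POLR1C and GTF3C4, have filled points on both sides of 0, whereas both UBTF points lie near 0.

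The same OHT contrast inside the libraries labelled shCDK12 gave mostly lower values. Of 38 members, 15 fell (39.5%) and 2 rose (5.26%), where 21.5% of the 12519 genes tested fell and 27.5% rose. The members' median was −0.21 against 0.05 over all genes. Of the 6 Pol I subunits 5 fell, and so did both shared subunits, 3 of the 6 Pol I initiation factors, 2 of the 8 Pol III subunits, 2 of the 6 TFIIIC genes and 1 of the 5 SNAPc genes.

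POLR3G, the subunit that pluripotent and transformed cells are known to use in place of POLR3GL, fell most, from 42.2, 59.7 and 38.3 CPM in the libraries labelled shCDK12 to 15.9, 16.4 and 14.9 with OHT (log2 −1.58, SE 0.16, adjusted p = 3.97e-07). The OHT libraries lay close together and far under all 3 libraries without OHT, at 0.334 of their level. POLR1G went from 68.6, 68.4 and 67.4 CPM to 42.4, 43.6 and 32.3 (log2 −0.77, SE 0.11, adjusted p = 2.51e-05). POLR1E went from 229, 208 and 220 to 125, 135 and 137 CPM (log2 −0.72, SE 0.08, adjusted p = 9.85e-07). Neither pair of groups overlapped. GTF3C4 fell from 608, 544 and 606 CPM to 363, 394 and 389 (log2 −0.62, SE 0.07, adjusted p = 3.1e-06), with every OHT library under every other.

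POLR1B (log2 −0.58, SE 0.08, adjusted p = 1.14e-05), POLR1C (−0.56, SE 0.08, adjusted p = 2.06e-05), POLR1F (−0.47, SE 0.08, adjusted p = 9.67e-05) and POLR1D, which pairs with POLR1C (−0.43, SE 0.08, adjusted p = 0.000361), fell by similar amounts, while POLR1A fell least of the Pol I subunits (−0.30, SE 0.10, adjusted p = 0.0214). POLR1H, the subunit for RNA cleavage, was the exception at log2 0.07. Among initiation factors RRN3, which joins Pol I to SL1, fell (−0.49, SE 0.10, adjusted p = 0.000376), as did the SL1 subunits TAF1A (−0.37, SE 0.13, adjusted p = 0.021) and TAF1D (−0.35, SE 0.11, adjusted p = 0.0116). RRN3 has near-identical pseudogene copies between which reads may be split, so its counts are uncertain. SNAPC4 (−0.55, SE 0.14, adjusted p = 0.00403), POLR3C, part of the Pol III initiation module (−0.45, SE 0.11, adjusted p = 0.00187), and GTF3C6 of TFIIIC (−0.43, SE 0.12, adjusted p = 0.00831) completed the falls.

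The 2 members that rose act at Pol III promoters. BRF2, the TFIIIB subunit of U6-type promoters, went from 48.9, 46.5 and 57.6 CPM to 60.9, 70.9 and 68.2 (log2 0.39, SE 0.11, adjusted p = 0.00602). In shNT cells it was 54.6, 46.8 and 49.6 CPM against 76.8, 66.8 and 57.4 upon OHT (log2 0.41, SE 0.18, adjusted p = 0.126), so the estimates were alike in the 2 backgrounds, and only the first passed. GTF3C1, the largest TFIIIC subunit, rose by log2 0.33 (SE 0.10, adjusted p = 0.0115). The remaining 21 members lay between −0.31 and 0.37. After thinning to the smallest library total, BRF2 (log2 0.275, adjusted p = 0.185), TAF1A (0.271), GTF3C1 (0.0604) and POLR1A (0.0671) did not pass. With all 12 libraries in 1 fit, SNAPC4 (0.0606), TAF1A (0.101), TAF1D (0.137) and GTF3C1 (0.0712) did not. GTF3C1 also failed with the gene length trend removed (0.0651). BRF2 lost its call without shCDK12+OHT replicate 2 (adjusted p = 0.0502), as did GTF3C6 (0.0715). TAF1A lost it without shCDK12+OHT replicate 1 or 2 (up to 0.122), TAF1D without shCDK12 replicate 2 (log2 −0.17) or shCDK12+OHT replicate 3 (up to 0.0565), GTF3C1 without shCDK12 replicate 3 or shCDK12+OHT replicate 1 or 2 (up to 0.0709), and POLR1A without shCDK12 replicate 1 (log2 −0.17) or shCDK12+OHT replicate 2 or 3 (up to 0.117).

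The 2 OHT comparisons share no library, so their signs can be set side by side. Of the 38 members, 23 had a positive value in shNT cells and a negative value in the libraries labelled shCDK12, 3 the reverse, 8 were positive in both and 4 negative in both. POLR1A, POLR1B, POLR1C, POLR1E, POLR1G and GTF3C4 rose in the first and fell in the second, and 0 members were called in the same direction in both. Opposite signs were common in general, since 71.1% of the 10233 genes tested in both comparisons had them, so opposite signs as such did not set the members apart. How many of all genes were called in both comparisons, in opposite directions or in the same, was not counted.

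**Figure D3:**
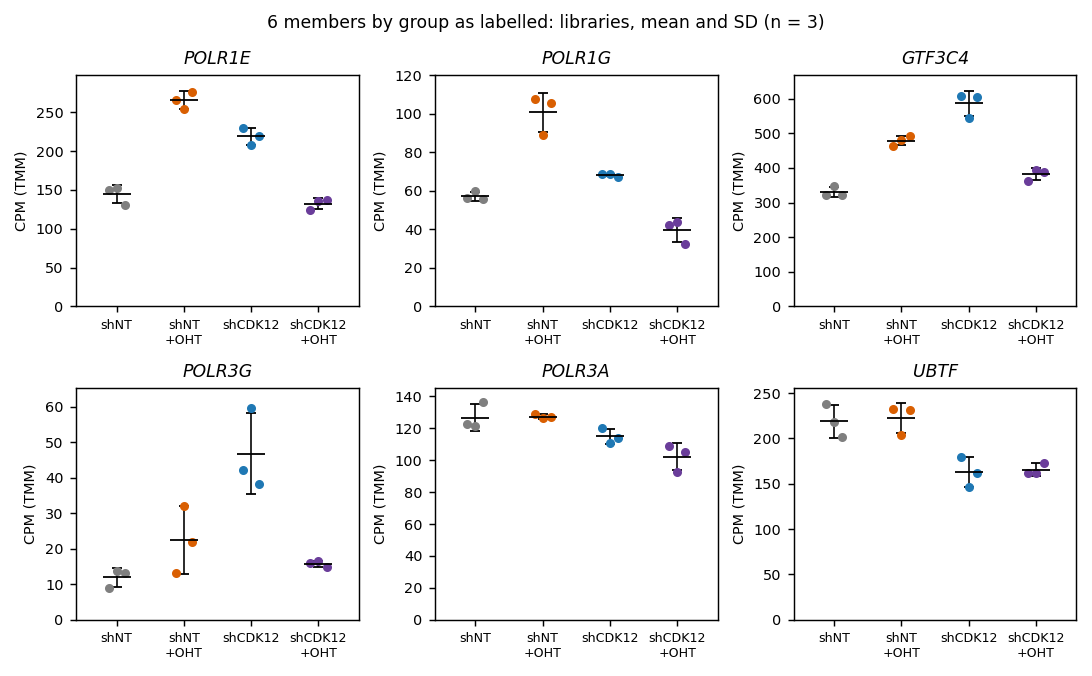
TMM-normalized CPM of 6 members in the 4 labelled groups, as points for libraries and as bars for mean and SD (n = 3), each axis starting at 0. POLR1E, POLR1G and GTF3C4 are higher with OHT in shNT and lower with OHT in shCDK12, POLR3G is highest in shCDK12 without OHT, POLR3A stays between 92.8 and 136 CPM, and UBTF is lower in both groups labelled shCDK12.

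Without OHT, the libraries labelled shCDK12 had 17 members higher (44.7%) and 7 lower (18.4%) than shNT, where 29.6% of the 11718 genes tested were higher and 32.4% lower. The median over the members was 0.18 against −0.03 over all genes. POLR3G showed the widest gap of any tested member in the 4 comparisons between groups, at 8.90, 13.9 and 13.0 CPM in shNT and 42.2, 59.7 and 38.3 in the libraries labelled shCDK12, a 3.99-fold difference (log2 2.00, SE 0.21, adjusted p = 9.34e-09). The lowest shCDK12 library lay far above the highest shNT library. POLR3K, the Pol III cleavage subunit, was also higher, at 24.6, 28.0 and 22.6 CPM against 15.0, 9.37 and 14.0 (log2 1.01, SE 0.22, adjusted p = 0.000289).

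On the Pol I side POLR1F went from 120, 125 and 116 CPM in shNT to 264, 297 and 258 (log2 1.18, SE 0.09, adjusted p = 3.94e-11) and POLR1B from 122, 121 and 133 to 259, 280 and 264 (log2 1.10, SE 0.09, adjusted p = 1.43e-10). Neither gene had overlapping groups. POLR1D (log2 0.93, SE 0.11, adjusted p = 8.1e-08), POLR1E (0.59, SE 0.09, adjusted p = 3.81e-06) and POLR1C (0.57, SE 0.09, adjusted p = 5.72e-06) were higher as well. POLR1H, in contrast, was lower, with 14.8, 16.6 and 16.5 CPM against 22.7, 29.7 and 20.5 (log2 −0.63, SE 0.20, adjusted p = 0.00747). RRN3 (log2 0.89, SE 0.12, adjusted p = 5.87e-07), TAF1A (0.81, SE 0.16, adjusted p = 0.000138) and TAF1D (0.41, SE 0.11, adjusted p = 0.00178) were higher. UBTF was lower (−0.44, SE 0.10, adjusted p = 0.000294).

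GTF3A stood at 52.8, 47.9 and 52.4 CPM against 23.0, 28.3 and 29.6 in shNT (log2 0.93, SE 0.15, adjusted p = 1.03e-05). GTF3C4 (log2 0.82, SE 0.08, adjusted p = 3.47e-09), MAF1 (0.74, SE 0.09, adjusted p = 5.86e-08) and GTF3C6 (0.60, SE 0.16, adjusted p = 0.00206) were higher too. SNAPc split, with SNAPC3 (0.51, SE 0.19, adjusted p = 0.0239) and SNAPC2 (0.47, SE 0.12, adjusted p = 0.00118) higher and SNAPC5 lower (−0.80, SE 0.21, adjusted p = 0.00227). POLR3B, the second-largest Pol III subunit, was lower (−0.51, SE 0.19, adjusted p = 0.0229). The 4 called members with smaller differences were POLR3D, GTF3C2, GTF3C5 and GTF3C3, at −0.29, −0.38, −0.34 and 0.35, and all 14 uncalled members lay between −0.30 and 0.25. POLR1H lost its call without shNT replicate 2 (adjusted p = 0.104), SNAPC3 without shNT replicate 2 or 3 or shCDK12 replicate 2 or 3 (up to 0.194, with log2 0.33 without shCDK12 replicate 2), and POLR3B without shNT replicate 2 or 3 or shCDK12 replicate 3 (up to 0.143). TAF1D moved to 0.23 without shCDK12 replicate 2, still called there, and did not pass with all 12 libraries in 1 fit (adjusted p = 0.0571). SNAPC3 (0.0884) and POLR3B (0.0616) did not pass in that fit either, and GTF3C6 did not after thinning (0.0774).

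**Figure D4:**
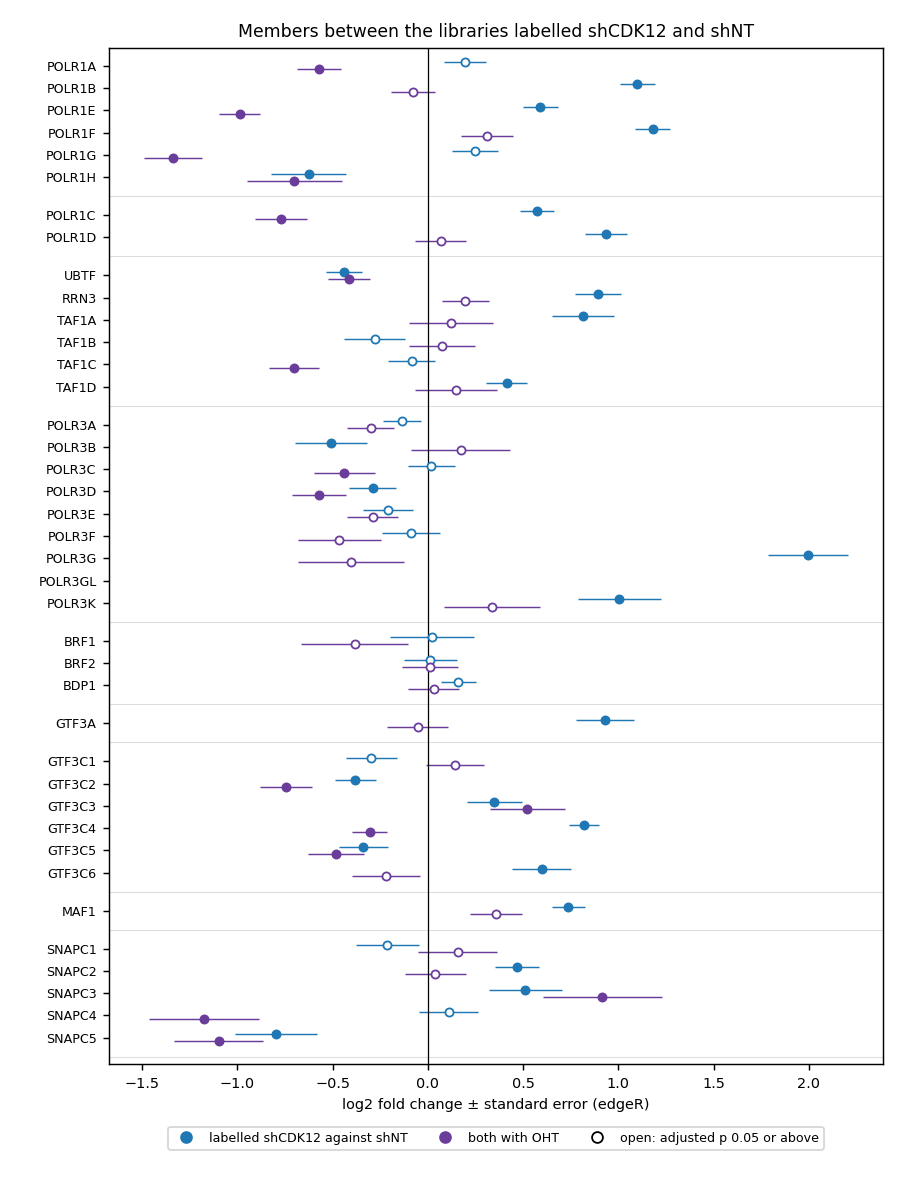
Log2 fold change with its standard error (edgeR) of the 38 tested members between the libraries labelled shCDK12 and shNT, without OHT (blue) and with OHT (purple), filled where the adjusted p was under 0.05. POLR3G, POLR1B and POLR1F have filled blue points above 1 and open purple points, whereas POLR1H, UBTF and GTF3C5 are filled under 0 in both.

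With OHT in both groups, the libraries labelled shCDK12+OHT had 14 members lower (36.8%) and 2 higher (5.26%) than shNT+OHT, where 21.6% of the 11668 genes tested were lower and 23.8% higher. The median was −0.26 against 0.05 over all genes. POLR1G was 107, 89.1 and 105 CPM in shNT+OHT and 42.4, 43.6 and 32.3 in the libraries labelled shCDK12+OHT, at 0.396 of the shNT+OHT level (log2 −1.34, SE 0.15, adjusted p = 7.49e-05). POLR1E was 266, 254 and 276 CPM against 125, 135 and 137 (log2 −0.99, SE 0.11, adjusted p = 5.06e-05). Both genes had no overlap between groups. POLR1C (−0.77, SE 0.14, adjusted p = 0.00106), POLR1H (−0.70, SE 0.25, adjusted p = 0.0407) and POLR1A (−0.57, SE 0.12, adjusted p = 0.00232) were the other Pol I subunits that were lower, and TAF1C (−0.70, SE 0.13, adjusted p = 0.00154) and UBTF (−0.41, SE 0.11, adjusted p = 0.00975) were the Pol I factors.

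Among Pol III genes, GTF3C2 of TFIIIC was 177, 129 and 162 CPM in shNT+OHT and 92.0, 97.1 and 88.5 in the libraries labelled shCDK12+OHT (log2 −0.75, SE 0.14, adjusted p = 0.00132). POLR3D, which forms the TFIIF-like pair of Pol III with POLR3E, was lower (−0.57, SE 0.14, adjusted p = 0.00729), as were POLR3C (−0.44, SE 0.16, adjusted p = 0.0443), GTF3C5 (−0.48, SE 0.15, adjusted p = 0.0212) and GTF3C4 (−0.31, SE 0.09, adjusted p = 0.0194). SNAPC5 was 19.1, 33.8 and 29.3 CPM against 12.0, 12.6 and 12.2 (log2 −1.10, SE 0.23, adjusted p = 0.00316). SNAPC4, with its wide shNT+OHT spread, was also lower (−1.17, SE 0.29, adjusted p = 0.0068). SNAPC3 was higher (0.91, SE 0.31, adjusted p = 0.0333), although its groups overlapped at 8.15, 25.6 and 14.8 against 29.7, 28.4 and 23.4 CPM, and so was GTF3C3 (0.52, SE 0.20, adjusted p = 0.0492), which did not pass with DESeq2 (adjusted p = 0.0717), upper-quartile scaling (0.0654) or thinning (0.128), nor in 6 other of its 15 alternatives. The 22 uncalled members lay between −0.47 and 0.36.

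Leaving out shCDK12+OHT replicate 1, 2 or 3 brought the 16 calls to 9, 10 and 10. Calls over all genes fell as well, from 5298 of 11668 to 3527 of 11404, 3520 of 11038 and 3642 of 11596. GTF3C4, GTF3C3, POLR3C, POLR1H and SNAPC3 lost their calls without any 1 of these 3 (adjusted p up to 0.113, 0.218, 0.223, 0.174 and 0.127). GTF3C5 lost its call without replicate 1 or 3 (up to 0.113) and UBTF without replicate 1 or 2 (up to 0.0619). Of the shNT+OHT libraries, leaving out replicate 1 ended the call of GTF3C3 (log2 0.29) and moved SNAPC4 to −0.71 and SNAPC3 to 0.59, both still called, and leaving out replicate 3 ended those of POLR1H (log2 −0.38), POLR3C and SNAPC3. The 2 hairpin comparisons share no library. POLR1C, POLR1E and GTF3C4 were higher without OHT and lower with it. SNAPC3 and, with a call that most alternatives ended, GTF3C3 were higher in both. POLR1H, UBTF, POLR3D, GTF3C2, GTF3C5 and SNAPC5 were lower in both. How many of all genes were called in both hairpin comparisons was not counted.

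The interaction of OHT and hairpin label, fitted on all 12 libraries, tested whether the OHT response differed between the 2 backgrounds. It was negative for 16 of the 38 members (42.1%) and positive for 0, where 19.6% of the 11699 genes tested were negative and 25.6% positive. At an unadjusted p under 0.05 there were 19 members, a count given without the share over all genes. DESeq2 called 19 members, all negative, and 5374 of the 11699 genes, 2765 of them positive. The members' median was −0.41 against 0.10 over all genes. The latter moved to −0.02 under upper-quartile scaling, where the members' median was −0.54. POLR3G had the largest difference between responses (−2.40, SE 0.37, adjusted p = 2.94e-05), then POLR1G (−1.61, SE 0.19, adjusted p = 1.21e-06), POLR1E (−1.60, SE 0.14, adjusted p = 2.17e-08), POLR1C (−1.37, SE 0.17, adjusted p = 2.35e-06) and SNAPC4 (−1.30, SE 0.33, adjusted p = 0.003).

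All but POLR1H of the Pol I and shared subunits were among the 16. POLR1B stood at −1.19 (SE 0.14, adjusted p = 1.58e-06), POLR1D at −0.89 (SE 0.18, adjusted p = 0.000375), POLR1F at −0.89 (SE 0.16, adjusted p = 0.000195) and POLR1A at −0.79 (SE 0.16, adjusted p = 0.00054). The factors GTF3C4 (−1.15, SE 0.12, adjusted p = 4.25e-07), GTF3A (−1.01, SE 0.22, adjusted p = 0.000831) and GTF3C6 (−0.84, SE 0.23, adjusted p = 0.00577) of Pol III followed, with RRN3 (−0.71, SE 0.18, adjusted p = 0.00294), TAF1A (−0.70, SE 0.26, adjusted p = 0.0357) and TAF1C (−0.64, SE 0.17, adjusted p = 0.00524) of Pol I. MAF1 was smallest (−0.41, SE 0.16, adjusted p = 0.0444). UBTF lay at 0.00, and POLR3B held the highest uncalled value, 0.67. SNAPC4 moved to −0.84 without shNT+OHT replicate 1, still called. MAF1 lost its call in 10 of the 12 fits that each left out a library (adjusted p up to 0.119, with −0.25 without shNT+OHT replicate 1) and kept it without shCDK12 replicate 2 and without shNT+OHT replicate 2. MAF1 also lost it after thinning to the smallest library total (adjusted p = 0.061) and with the gene length trend removed (−0.14, adjusted p = 0.454). TAF1A lost its call without shNT replicate 1 or 3, shCDK12 replicate 2 or 3, shNT+OHT replicate 2 or shCDK12+OHT replicate 1 or 2 (up to 0.0914). It also lost it after thinning (0.143) and with no filter on low counts (0.0532).

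**Figure D5:**
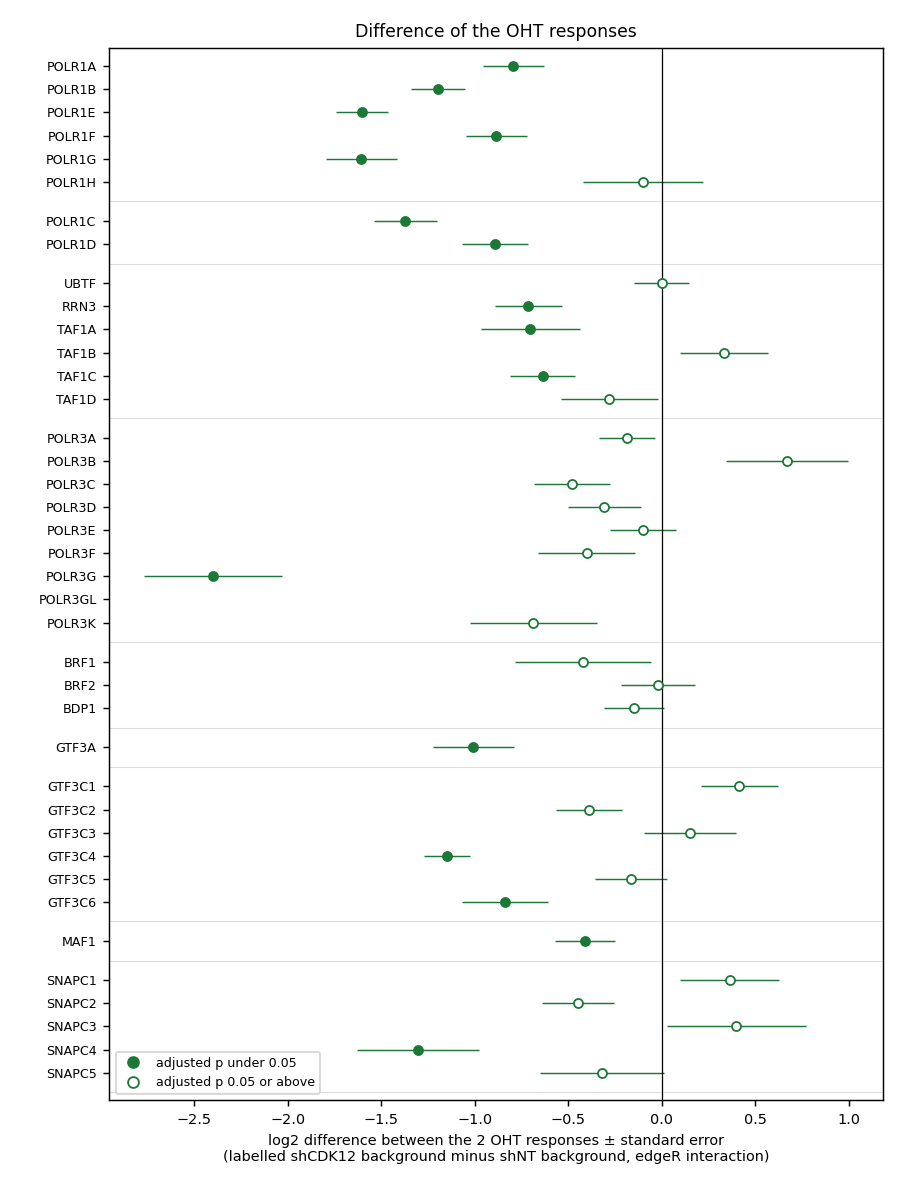
Difference between the log2 OHT response in the background labelled shCDK12 and that in shNT, with its standard error, for the 38 tested members (edgeR interaction, all 12 libraries), filled where the adjusted p was under 0.05. All 16 filled points are under 0, POLR3G is farthest at −2.40, and the Pol III specific subunits other than POLR3G are open.

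POLR3G and POLR3GL are alternative forms of the same Pol III subunit, and their fitted differences had opposite signs in each comparison. POLR3GL had only 2 to 44 reads per library and fell under the count filter, so it entered none of the counts above. It stood at 7.26, 5.46 and 5.01 CPM in shNT, 0.627, 1.65 and 1.45 in shNT+OHT, 2.55, 2.41 and 2.78 in shCDK12 and 3.26, 4.18 and 5.08 in shCDK12+OHT. Only shNT and shCDK12+OHT overlapped. Fitted without the filter, POLR3GL fell upon OHT in shNT cells (log2 −2.32, SE 0.72, adjusted p = 0.0161), was lower in the libraries labelled shCDK12 than in shNT (−1.22, SE 0.43, adjusted p = 0.0138) and was higher in shCDK12+OHT than in shNT+OHT (1.84, SE 0.61, adjusted p = 0.0215). The OHT contrast inside the libraries labelled shCDK12 did not pass (0.69, SE 0.35, adjusted p = 0.123). Its interaction was positive (3.04, SE 0.76, adjusted p = 0.000515), against −2.40 for POLR3G.

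Other parts of the same machines, which are no members, were read from a separate list. Of its 12 genes, among them the subunits common to all 3 polymerases, 6 rose and 0 fell upon OHT in shNT cells, 0 rose and 8 fell upon OHT in the libraries labelled shCDK12, and 8 had a negative interaction. The common subunits POLR2E, POLR2F, POLR2H and POLR2L rose in shNT by 0.83, 1.13, 0.82 and 0.81 on the log2 scale, whereas POLR2K, the remaining common subunit listed, stood at −0.12 (SE 0.20, adjusted p = 0.732). TBP, which all 3 polymerases use, stood at 0.06 (SE 0.21). Without OHT, 7 of the 12 were higher in the libraries labelled shCDK12 than in shNT and 2 lower, and with OHT 0 were higher and 4 lower. Of the 7 subunits particular to Pol II, 1 rose in shNT upon OHT (POLR2D, 0.69, SE 0.12, adjusted p = 0.0013), 2 fell upon OHT in the libraries labelled shCDK12, and 1 was positive and 1 negative in the interaction. Between hairpin labels, 3 of these 7 were higher and 0 lower without OHT, and 1 was higher and 2 lower with it. The proteins of RNase P and RNase MRP, 8 or 9 of them tested, had 2 higher and 0 lower, 2 and 3, 2 and 3, 1 and 5, and 1 and 2, in the order of the comparisons above.

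Few products of Pol I and Pol III could be read. Of 25 listed, 10 had a row in the table, no ribosomal DNA transcript among them, and at most 5 passed the filter. RMRP, the RNA of RNase MRP, was 2220, 2430 and 2072 CPM in shNT and 3975, 3491 and 3945 upon OHT (log2 0.76, SE 0.09, adjusted p = 9.38e-05). RPPH1, the RNA of RNase P, was 633, 791 and 776 CPM in shNT and 1571, 1145 and 1682 upon OHT (log2 1.00, SE 0.14, adjusted p = 0.000292). Both Pol III products were above shNT in every library of the other 3 groups. In the libraries labelled shCDK12, RMRP was 3581, 4140 and 4908 CPM without OHT and 3777, 4019 and 3543 with it (log2 −0.16, SE 0.09, adjusted p = 0.181), and RPPH1 was 1732, 2237 and 2249 against 1367, 1601 and 1362 (log2 −0.52, SE 0.10, adjusted p = 0.000204). Both had a negative interaction, −0.92 for RMRP and −1.53 for RPPH1. The vault RNA VTRNA1-1 rose upon OHT in shNT (log2 0.85, SE 0.24, adjusted p = 0.0241) and was lower in the libraries labelled shCDK12, by 1.83 without OHT and by 2.49 with it. The library kit is made for longer RNA, and how far such short transcripts were kept was not tested.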

How the data were processed

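The authors deposited 1 table of raw counts per gene for the 12 EU-seq libraries, by Entrez gene ID, with no normalization. The submitters' processing notes name STAR 2.7.5c, featureCounts 1.4.5-p1 and the build hg19; the annotation and the strand setting are not given in the sources used here. The table has no mouse rows, so no scaling by the added mouse RNA was made and changes in total new RNA cannot be seen. Symbols came from RefSeq (GRCh38.p14) for 23284 of 23434 rows, and the 150 without a symbol stayed in the tests. Exon lengths for values per kilobase are unions of GENCODE v44 exons.

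Counts were fitted with edgeR 4.0.16 in R 4.3.3 (TMM factors, quasi-likelihood test, two-sided) keeping genes whose normalized count averaged above 32 in the libraries fitted. Each of 4 comparisons used its 6 libraries and the interaction all 12, and p-values were adjusted by Benjamini-Hochberg over all genes tested. Named as changed are members with an adjusted p under 0.05, with statistics for at most the 20 largest differences per comparison. Of other lists, at most 5 called genes are named so. Some uncalled genes are also given with their values. The members, lists, tests and rules were chosen with earlier results of these data known. Replicate numbers were checked for pairing: deviations of same-numbered libraries correlated at −0.09 to 0.30, over 0.1 in 2 of 18 pairs, so they were not treated as pairs. Both of these 2 pairs joined shCDK12 with shNT+OHT, at 0.275 for replicates 1 and 0.304 for replicates 2. No pair of replicates agreed within counting noise. Alternatives were DESeq2 1.42.0, other scalings and filters, all libraries in 1 fit, thinning, a replicate block, leaving out each library and, chosen after seeing the data, removal of the gene length trend. The fits were tested on simulated data.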

Additional observations from a re-analysis of the deposited data

Results flagged for a closer look

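The OHT response differed between the shNT background and the background labelled shCDK12 in 16 of 38 members, by the edgeR interaction test on all 12 libraries. All 16 differences were negative. Differing responses were common in general, with 5289 of 11699 genes called, 2994 of them positive, so what set the members apart was the direction. The log2 difference of the 2 responses, shCDK12-labelled minus shNT, was −2.40 for POLR3G, −1.61 for POLR1G, −1.60 for POLR1E, −1.37 for POLR1C, −1.30 for SNAPC4, −1.19 for POLR1B, −1.15 for GTF3C4, −1.01 for GTF3A, −0.89 for POLR1D, −0.89 for POLR1F, −0.84 for GTF3C6, −0.79 for POLR1A, −0.71 for RRN3, −0.70 for TAF1A, −0.64 for TAF1C and −0.41 for MAF1. Newly made CDK12 RNA, which does not measure its mRNA or protein, did not differ between shNT and the libraries labelled shCDK12 without OHT (log2 −0.08, adjusted p = 0.447). The values above are therefore differences between labelled groups. An exchange of labels, which was not tested, would change what they mean.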

How the results depend on the processing

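Of 78 named results, 52 kept their call in every alternative in which the gene was tested, 26 lost it in at least 1 and 0 changed direction. Some genes were not tested in every alternative. POLR3K and SNAPC5 between labels without OHT were tested in 13, where most others were tested in 15. The 78 include only 20 of the 24 members called between labels without OHT. With all 12 libraries in 1 fit, 16 members were called upon OHT in shNT, against 9, while the calls over all genes went from 1782 of 10272 to 3256 of 11699. Leaving out each library in turn gave 4 to 12 calls there, 12 to 17 for OHT in the libraries labelled shCDK12, 19 to 25 between labels without OHT, 9 to 19 between labels with OHT, and 14 to 20 for the interaction. Calls over all genes in these runs were 670 to 2523, 5000 to 6500, 6425 to 7132, 3520 to 6238 and 4609 to 5829, in that order. The members' median upon OHT in the libraries labelled shCDK12 was −0.31 after thinning. Between labels without OHT it was 0.27 under upper-quartile scaling, 0.28 after thinning and 0.23 with the gene length trend removed, the last chosen after seeing the data. The CDK12 difference between labels without OHT, near 0 and uncalled throughout, turned from −0.08 to 0.015 and 0.023 under upper-quartile scaling and without the length trend. The causes were not tested. With a replicate block, the calls were 8, 18, 25, 15 and 17 in the same order, and 1734, 6236, 7437, 4846 and 5385 over all genes. TAF1C upon OHT in shNT (adjusted p = 0.057) and POLR1H (0.0685) and POLR3C (0.059) between labels with OHT did not pass with the block. The shallowest library, in shNT+OHT, had 1251695 counts, which limits precision most for members with few reads.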
